A study of Arabidopsis with 4 samples.

Results

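The xyloglucan endotransglucosylase/hydrolases, abbreviated XTH, are secreted enzymes of the plant cell wall. They were examined in 4 RNA sequencing libraries of whole Arabidopsis seedlings. Genes were taken as members where the deposited table names them XTH with a number or describes them as a xyloglucan endotransglucosylase. This gave 33 of the 32833 genes in the table, XTH1 to XTH33, of which 32 met the rule by name and all 33 by description. XTH17 carries the name ATXTH17 in the table, and XTH24 is also known as SEN4. The libraries came from the wild type Col-0, the standard laboratory accession (n = 2), and from jmj28-2 in the Col-0 background (n = 2), which is mutant for JMJ28, one of the KDM3-type histone demethylases. All seedlings were 12 days old and had been raised at 23 °C on diluted MS medium with 1% sucrose, under days of 16 h light and 8 h dark. The type and position of the jmj28-2 mutation, and whether libraries of a genotype came from separate sowings, are not stated in the labels, so p-values cover only the spread of these libraries, possibly a technical one. In whole seedlings, fewer cells of a type and less RNA per cell cannot be told apart.

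Xyloglucan is a branched polysaccharide that coats and links cellulose in the walls of growing plant cells. XTH enzymes cut a xyloglucan chain and join the cut end to another chain, or to water, and in this way remodel the wall while cells expand. The genes have been sorted by sequence into groups I, II and III. In Arabidopsis many group II genes are known from roots, and others from responses to touch, hormones, shade and darkness.

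Values are TPM, a transcript level corrected for transcript length and scaled to a fixed total per library. The depth of sequencing is unknown. Values after ± are standard deviations (n = 2 libraries), and SE stands for a standard error. Genes with a mean of at least 1 TPM were tested, 19764 in all, on the scale of log2(TPM + 1) with limma, and a gene was called at a Benjamini-Hochberg adjusted p under 0.05. JMJ28 itself had 7.63 and 7.70 TPM in the Col-0 libraries against 5.45 and 5.72 TPM in the jmj28-2 libraries (limma adjusted p = 0.235). Both mutant libraries were below both wild-type ones, as in 17.6% of all genes tested. With the type of mutation not stated, this order alone does not check the labels. Pearson's r between libraries, across genes that are not independent replicates, ran from 0.973 to 0.980. The libraries held root and shoot tissue by their markers, with all 16 root and all 8 shoot marker genes above the filter. Of 5 floral organ genes, 1 passed it, SEP3, and APETALA1 was listed at 0 in every library. SEP3 had 3.99 and 3.62 TPM in Col-0 against 6.89 and 5.81 TPM in jmj28-2 (limma adjusted p = 0.224).

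Of the 33 members, 27 reached a mean of 1 TPM and 6 did not. XTH4 was the most abundant at 195.63 and 164.23 TPM in Col-0 against 214.27 and 202.09 TPM in jmj28-2. XTH7, XTH31 and XTH9 followed, and these 4 were the members at 100 TPM or more, in every library. Between 15 and 17 members per library lay between 10 and 100 TPM. The 5 most abundant members, which include XTH27, made up 54.3% to 58.4% of the summed XTH level. The order of the levels was firm at few places. Of the neighbours among the 27 tested members, XTH7 and XTH31, XTH9 and XTH27, and XTH21 and XTH10 did not overlap over the 4 libraries, while all other neighbours did.

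**Figure D1:**
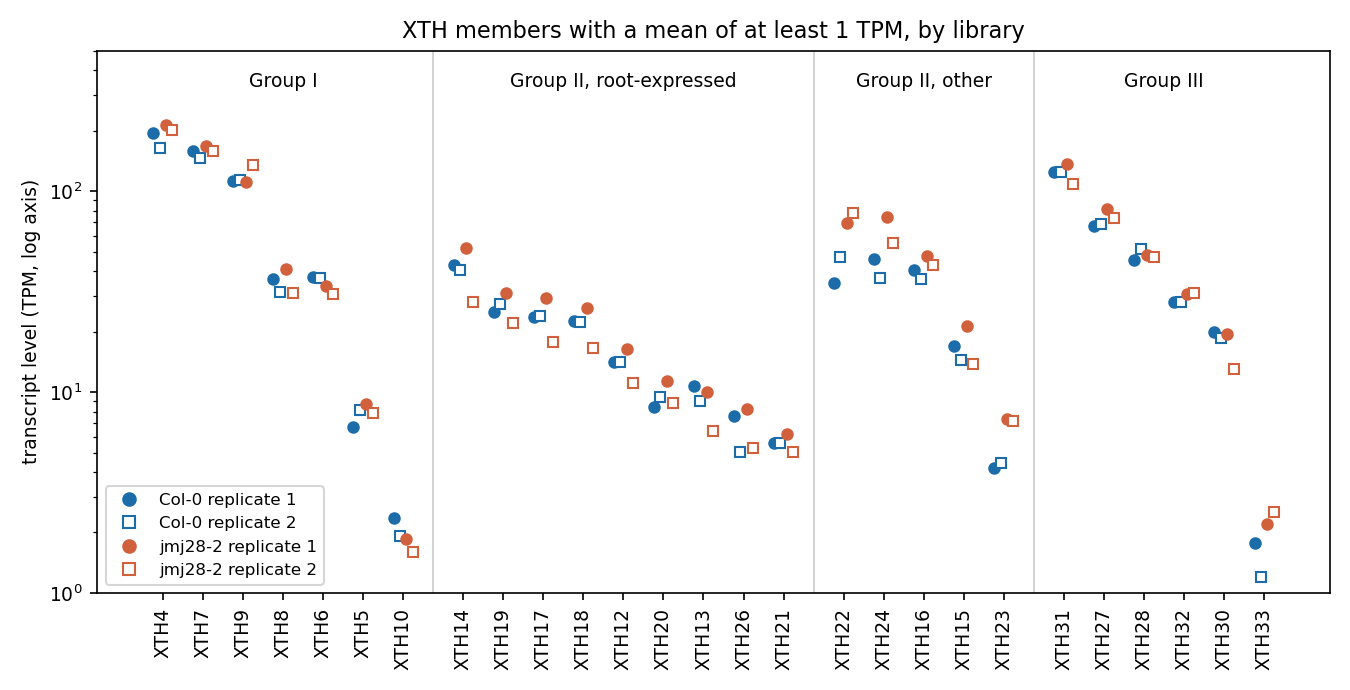
Transcript level in TPM, on a log axis, of the 27 XTH members with a mean of at least 1 TPM; each symbol is 1 library, blue for Col-0 and orange for jmj28-2, filled circles for replicate 1 and open squares for replicate 2. Mean levels run from 194 TPM for XTH4 down to 1.93 TPM for XTH33, and the root-expressed members of group II have jmj28-2 replicate 2 below jmj28-2 replicate 1 throughout.

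No member was called. With limma, 0 of the 27 tested members were higher and 0 were lower in jmj28-2 at an adjusted p under 0.05, where 0.0405% of all genes tested were called higher and 0.0354% lower. At an unadjusted p under 0.05, 5 members were higher and 1 was lower, against 9.5% and 4.36% of all genes tested. Both jmj28-2 libraries lay above both Col-0 libraries in 8 of the 27 members and below both in 2, where the shares over all genes tested were 29% and 17.6%. The share of members with both mutant libraries higher, at 29.6%, was thus near that of all genes. The share with both lower, at 7.41%, was smaller than that of all genes, and 17 members overlapped. The median log2 change of the members was 0.08, beside 0.03 over all genes tested. The jmj28-2 mean was the higher one in 17 members (63.0%, against 57.3% of all genes tested) and the lower one in 10. Summed over the 33 members, the XTH level was 1141 and 1093 TPM in Col-0 against 1309 and 1160 TPM in jmj28-2.

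**Figure D2:**
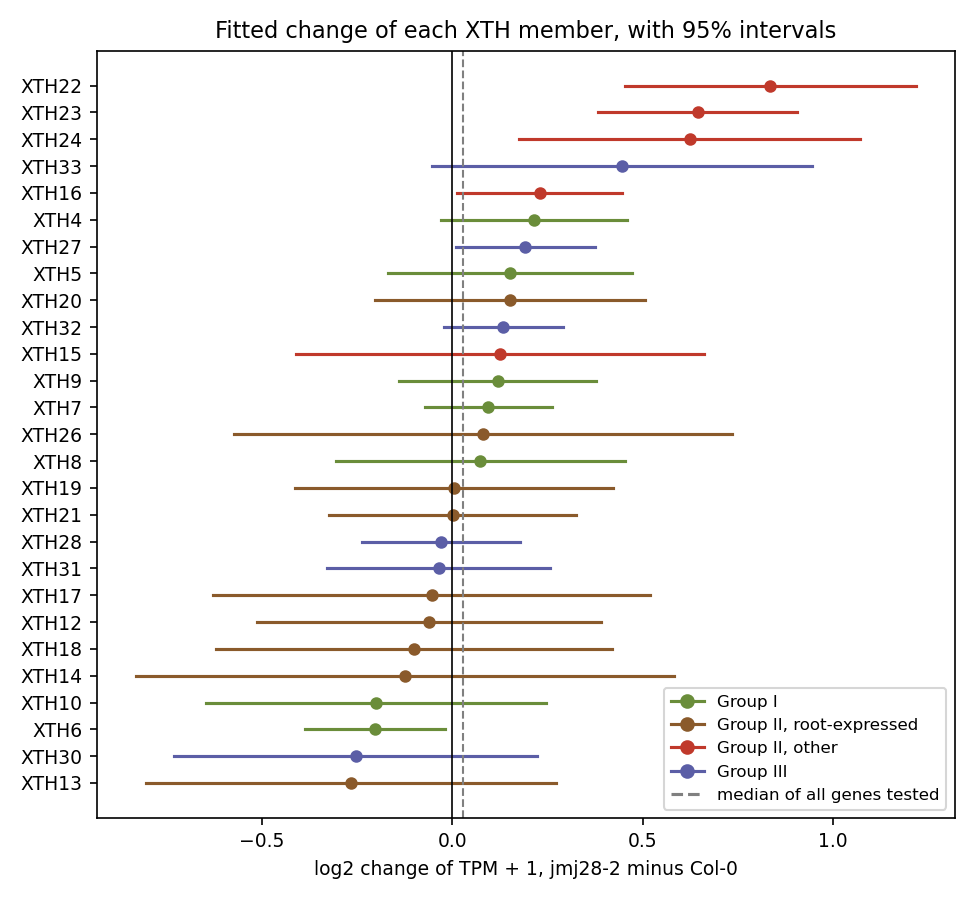
Fitted log2 change of TPM + 1 in jmj28-2 minus Col-0 for the 27 tested XTH members, with the 95% interval of each as a bar, coloured by group; the dashed line is the median of all genes tested, 0.03. XTH22, XTH23 and XTH24 have the highest estimates, and the intervals of the root-expressed members of group II all span 0.

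The members with the highest estimates belong to the part of group II that is known for responses to stimuli, set apart after the values were seen. XTH22 (AT5G57560, chromosome 5) is the touch-induced gene TCH4. It had 34.98 and 47.14 TPM in Col-0 against 69.23 and 77.44 TPM in jmj28-2. Both mutant libraries were above both wild-type libraries, although the Col-0 pair itself was spread. The means were 41.1 ± 8.60 and 73.3 ± 5.81 TPM, a ratio of 1.79, with a log2 change of 0.83 (SE 0.150, 95% interval 0.45 to 1.22) that did not pass (limma adjusted p = 0.198).

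XTH23 (AT4G25810, chromosome 4), also named XTR6, had the smallest p of the family. It had 4.20 and 4.41 TPM in Col-0 against 7.37 and 7.21 TPM in jmj28-2, so that replicates lay close together and the genotypes apart. The ratio of the means was 1.69 and the log2 change 0.64 (SE 0.102, 95% interval 0.38 to 0.90), which did not pass over all genes (limma adjusted p = 0.18). XTH24 (AT4G30270, chromosome 4) is also known as MERI5B, for its expression in meristems, and as SEN4, a gene linked to senescence and darkness. It had 46.17 and 36.80 TPM in Col-0 against 74.49 and 55.02 TPM in jmj28-2. The mutant libraries were again the higher ones, with a wide spread within both genotypes. The ratio was 1.56 and the log2 change 0.62 (SE 0.176, 95% interval 0.18 to 1.07; limma adjusted p = 0.264).

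The other members of this part of group II differed less. XTH16, a close relative of XTH15, had 40.46 and 36.61 TPM in Col-0 against 47.65 and 43.06 TPM in jmj28-2, without overlap and with a ratio of 1.18 (log2 change 0.23, SE 0.0849, limma adjusted p = 0.341). XTH15, also named XTR7 and known from the shade response, had 16.96 and 14.48 TPM in Col-0 against 21.42 and 13.76 TPM in jmj28-2. The mutant libraries of XTH15 lay on either side of the wild-type pair. XTH25, known as XTR3, was under the filter at 0.26 to 0.51 TPM. Summed over XTH15, XTH16 and XTH22 to XTH25, the level was 143 and 140 TPM in Col-0 against 221 and 197 TPM in jmj28-2. The groups were apart, with a ratio of 1.48. Because these genes were grouped after their values were seen, the sum restates the single members and is no separate result.

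XTH22 was set beside the other touch genes, calmodulins and calmodulin-like proteins that sense calcium. CML12 (TCH3) had 68.33 and 84.34 TPM in Col-0 against 151.06 and 220.23 TPM in jmj28-2, a ratio of 2.43 (log2 change 1.25, SE 0.199, limma adjusted p = 0.18). CML24 (TCH2) had 36.62 and 61.65 TPM in Col-0 against 78.68 and 91.91 TPM in jmj28-2, a ratio of 1.74 (log2 change 0.83, SE 0.245, limma adjusted p = 0.277). Both showed the same order of libraries as XTH22, with Col-0 replicate 1 lowest and jmj28-2 replicate 2 highest. CAM1 (TCH1) did not share it, at 200.66 and 186.93 TPM in Col-0 against 201.89 and 199.07 TPM in jmj28-2 (log2 change 0.05, 95% interval -0.10 to 0.20). Of the 3 touch genes other than XTH22, 0 passed over all genes with limma and 2 were higher at an unadjusted p under 0.05, against 9.5% of all genes tested. The same 2 had both mutant libraries above both Col-0 libraries, against 29%. The list was chosen with earlier results of these data known, so these counts are a description and no separate support for XTH22.

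**Figure D3:**
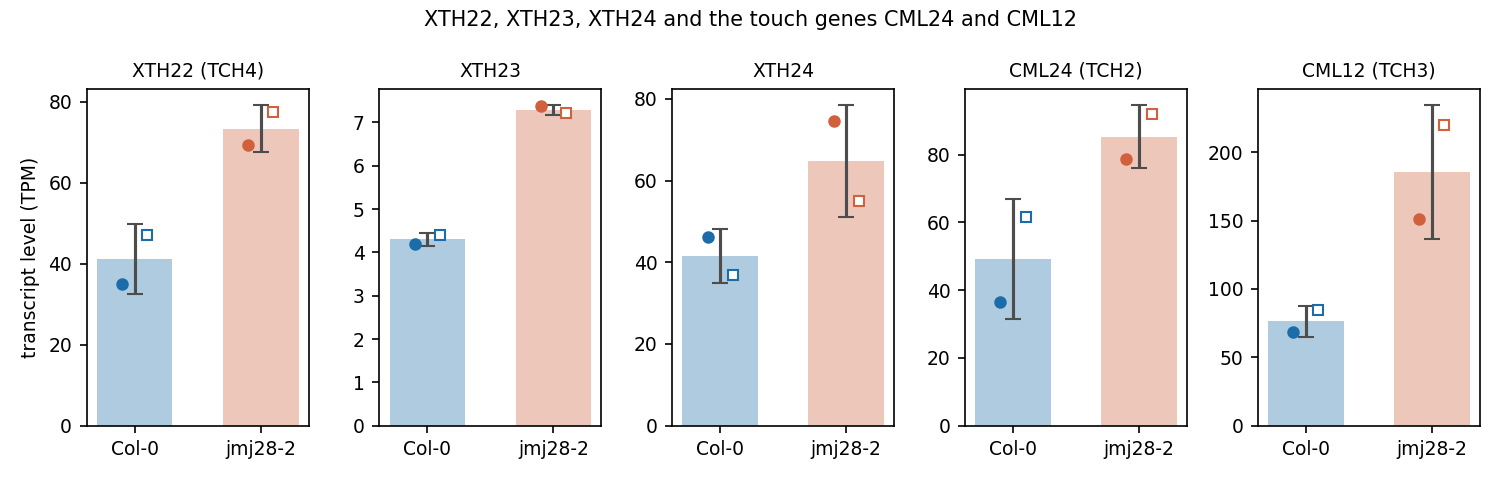
Transcript level in TPM of XTH22, XTH23, XTH24 and the touch genes CML24 and CML12; bars are means, error bars are standard deviations (n = 2), and symbols are single libraries (circles for replicate 1, squares for replicate 2). In all 5 genes both jmj28-2 libraries lie above both Col-0 libraries, and the Col-0 pair is spread in XTH22 and CML24.

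The root-expressed members of group II differed more within the mutant pair than between the genotype means. The 9 genes are XTH12, XTH13, XTH14, XTH17, XTH18, XTH19, XTH20, XTH21 and XTH26, and all were tested. XTH14, known from root hairs and the elongating root epidermis, had 43.04 and 40.72 TPM in Col-0 against 52.14 and 28.09 TPM in jmj28-2. The Col-0 libraries lay together, and the mutant libraries stood on opposite sides of them. Its log2 change was -0.12, with a 95% interval from -0.83 to 0.58 that leaves the size of any difference wide.

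XTH17, XTH18, XTH19 and XTH20 are related genes that are expressed in distinct zones of the root. XTH17 had 23.53 and 23.91 TPM in Col-0 against 29.29 and 17.71 TPM in jmj28-2. XTH18 had 22.61 and 22.27 against 26.13 and 16.61 TPM. XTH19 had 25.11 and 27.33 against 31.16 and 22.14 TPM. In XTH17, XTH18 and XTH19, jmj28-2 replicate 1 was the highest library and jmj28-2 replicate 2 the lowest. XTH20 had 8.46 and 9.44 TPM in Col-0 against 11.38 and 8.83 TPM in jmj28-2, with the second mutant library inside the Col-0 range.

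XTH12 had 14.04 and 14.08 TPM in Col-0 against 16.29 and 11.06 TPM in jmj28-2. XTH13 had 10.75 and 9.04 against 10.06 and 6.39 TPM. The latter was the one root-expressed member in which jmj28-2 replicate 1 did not exceed both Col-0 libraries. XTH21, which takes part in primary root growth, had 5.59 and 5.57 against 6.18 and 5.04 TPM. XTH26, an enzyme of root hairs, had 7.61 and 5.01 against 8.26 and 5.25 TPM, with a Col-0 pair as spread as the mutant pair.

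The 9 genes were set apart after the values were seen, and related ones can share reads, so they do not count as 9 independent genes. Among them, jmj28-2 replicate 1 lay above both Col-0 libraries in 8 and jmj28-2 replicate 2 below both in 7. Of all genes tested, 50.5% and 38.2% did so. Replicate 2 was below replicate 1 in 9 of 9, at 0.539 to 0.816 times its level. Over all 27 tested members it was below in 23, and over all genes tested in 62.9%. The median log2 difference of replicate 2 minus replicate 1 within jmj28-2 was -0.57 for the 9 genes and -0.05 over all genes tested. The same difference within Col-0 was -0.004 for the 9 genes and 0.004 over all genes tested. Summed over the 9 genes, the level was 161 and 157 TPM in Col-0 against 191 and 121 TPM in jmj28-2. The median log2 change between genotypes was -0.05. Of the 9, 0 were free of overlap, where 29% of all genes tested lay above and 17.6% below without overlap.

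Most root marker genes were low together with these members in jmj28-2 replicate 2. Markers of the same cell type can vary together and do not count as independent genes. Of the 16 root markers, 14 were below both Col-0 libraries in jmj28-2 replicate 2, against 38.2% of all genes tested. PLT1 and PLT2 were not, at 1.48 and 1.31 TPM, near the filter. SCR was little lower, at 17.49 TPM against 18.29 and 18.42 TPM in Col-0. The median of the list lay 0.55 log2 units under the Col-0 mean (-0.55), beside -0.32 for the root-expressed XTH members. In jmj28-2 replicate 1 the 2 sets differed, with medians of 0.005 for the markers and 0.24 for the XTH members. There 4 of the 16 markers were above both Col-0 libraries, against 50.5% of all genes tested. The summed level of the markers was 207 to 213 TPM in Col-0 against 212 and 133 TPM in jmj28-2. No root marker was at 0. The summed shoot markers ran from 64067 to 64418 TPM in Col-0 and from 59751 to 61213 TPM in jmj28-2. Of the 8 shoot markers, 5 had both jmj28-2 libraries below both Col-0 libraries and 0 had both above. The shares over all genes tested were 17.6% and 29%. The part of root and shoot content in the levels of the XTH members was not tested.

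**Figure D4:**
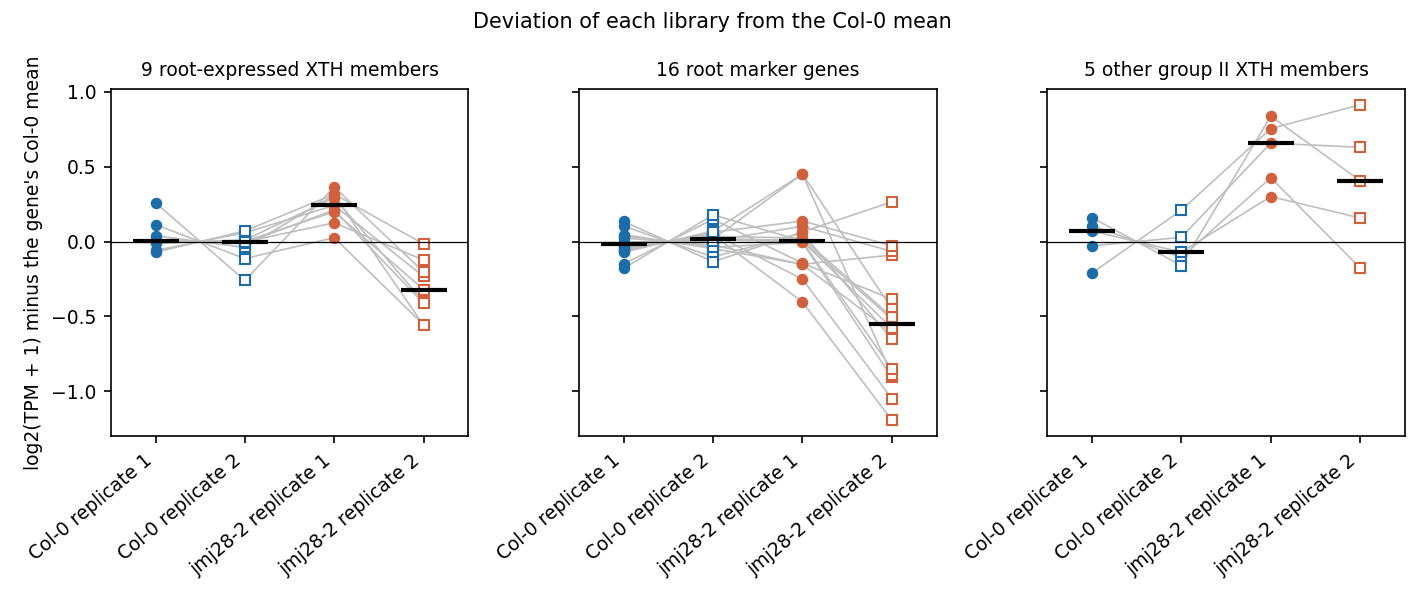
Log2(TPM + 1) of each gene minus its own Col-0 mean, by library, for the 9 root-expressed XTH members, the 16 root marker genes and the 5 other tested group II members; grey lines join a gene's values and black bars are medians. The root-expressed members lie at a median of 0.24 in jmj28-2 replicate 1 and -0.32 in replicate 2, and the other group II members at medians of 0.66 and 0.41, with XTH15 at -0.18 in replicate 2.

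The group I members include the most abundant genes of the family. XTH4, an enzyme of growing and thickening stems, averaged 180 ± 22.2 TPM in the wild type and 208 ± 8.61 TPM in the mutant, without overlap (log2 change 0.21, SE 0.0962, 95% interval -0.03 to 0.46; limma adjusted p = 0.405). XTH7 had 158.26 and 147.04 TPM in Col-0 against 167.74 and 158.20 TPM in jmj28-2, and its groups overlapped narrowly (log2 change 0.09, SE 0.0654, limma adjusted p = 0.575). XTH9, known from shoot tips and stems, had 112.44 and 113.01 TPM in Col-0 against 111.01 and 135.14 TPM in jmj28-2. In XTH9 a single library, jmj28-2 replicate 2, stood above the others, in the reverse order of the root-expressed members.

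XTH6 was the member with the smallest p among those with a lower mean in jmj28-2. It had 37.54 and 36.84 TPM in Col-0 against 33.69 and 30.75 TPM in jmj28-2, a ratio of 0.866 without overlap (log2 change -0.20, SE 0.0721, 95% interval -0.39 to -0.02; limma adjusted p = 0.328). XTH10 was also lower without overlap, at 2.35 and 1.93 against 1.86 and 1.60 TPM, near the filter (limma adjusted p = 0.655). These were the 2 tested members below both Col-0 libraries. XTH8 had 36.37 and 31.65 TPM in Col-0 against 41.16 and 31.07 TPM in jmj28-2, and XTH5 had 6.68 and 8.17 against 8.76 and 7.90 TPM, both with overlap.

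Group III holds members in which hydrolysis has been found or proposed. XTH31, also named XTR8, is a group III enzyme known for hydrolase activity and for a role in the aluminium response of roots. It had 124.69 and 124.77 TPM in Col-0 against 136.67 and 108.33 TPM in jmj28-2, a nearly equal wild-type pair between the mutant libraries (log2 change -0.04, SE 0.115, 95% interval -0.33 to 0.26; limma adjusted p = 0.916). XTH32, its closest relative, had 28.18 and 28.21 against 30.89 and 31.18 TPM. The mutant libraries of XTH32 were both higher (log2 change 0.13, SE 0.0616, limma adjusted p = 0.415).

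XTH27, known from the veins of leaves, had 66.75 and 68.28 TPM in Col-0 against 81.41 and 73.25 TPM in jmj28-2 (ratio 1.15, log2 change 0.19, SE 0.0718, limma adjusted p = 0.344). XTH33, which carries a membrane anchor, had 1.77 and 1.20 against 2.21 and 2.52 TPM (ratio 1.59, log2 change 0.45, SE 0.196, 95% interval -0.05 to 0.94; limma adjusted p = 0.395). With XTH32, these were the tested group III members without overlap, all higher in jmj28-2, as were 29% of all genes tested. Over the 6 tested group III members, the jmj28-2 mean was higher in 3 and lower in 3. XTH28, known from stamen filaments, had 45.37 and 51.69 against 48.12 and 46.75 TPM. XTH30 had 19.95 and 18.52 against 19.53 and 13.01 TPM, with jmj28-2 replicate 2 alone low.

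The 6 members under the filter were low in every library. XTH1 and XTH3, the latter known for joining cellulose chains, were listed at 0 throughout. XTH2 was at 0.10 TPM in Col-0 replicate 2, at 0.15 TPM in jmj28-2 replicate 1 and listed at 0 in the other libraries. XTH11 had 0.57 and 0.53 TPM in Col-0 against 0.21 and 0.39 TPM in jmj28-2, and XTH29 0.19 and 0.22 against 0.17 and 0.11 TPM. The unknown depth leaves no way to tell such levels from 0, and no fold is given for these members.

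Members that lie next to each other on a chromosome differed in level in some cases. In RefSeq order, 10 members fell into 4 runs of adjacent protein-coding genes. XTH23 and XTH14 are neighbours on chromosome 4, where XTH23 was at 4.20 to 7.37 TPM and higher in both mutant libraries, and XTH14 at 28.09 to 52.14 TPM and overlapping. XTH24, XTH18 and XTH19 form another run on chromosome 4, in which XTH24 alone had groups that did not overlap. Whether neighbours differ in their response was not tested. XTH13, XTH25 and XTH22 form a run on chromosome 5, with XTH12 separated from it by 1 gene. XTH22 reached 77.44 TPM there, while the adjacent XTH25 stayed at 0.51 TPM or less. XTH1 and XTH2 make up the last run. Closely related members can share reads, which are then divided between them by estimation. The levels of single members of XTH12 to XTH14 and of XTH17 to XTH20 are therefore uncertain. How far other members share reads, among them XTH15, XTH16 and XTH22 to XTH25, was not examined.

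Of the genes that make and trim xyloglucan outside the family, 18 of 19 listed were tested, and the jmj28-2 mean was the higher one in 11 and the lower one in 7. None was called with limma at an adjusted p under 0.05. At an unadjusted p under 0.05, 2 of the 18 were higher and 0 lower, against 9.5% and 4.36% of all genes tested. Both jmj28-2 libraries lay above both Col-0 libraries in 8 and below both in 3, against 29% and 17.6%. The median log2 change was 0.10, beside 0.03 over all genes tested. XXT1, a xylosyltransferase that adds the first side-chain sugar to the backbone, had 12.62 and 13.02 TPM in Col-0 against 18.97 and 19.17 TPM in jmj28-2. Replicates lay close together and the genotypes apart, with a ratio of 1.49 (log2 change 0.54, SE 0.0723, 95% interval 0.35 to 0.72; limma adjusted p = 0.142). CSLC4, a glucan synthase that makes the backbone, had 27.12 and 26.57 against 34.55 and 36.07 TPM, a ratio of 1.32 (log2 change 0.38, SE 0.0644, limma adjusted p = 0.18).

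Other genes of the list gave smaller estimates. XXT2, the partner of XXT1, had 63.01 and 65.73 TPM in Col-0 against 68.98 and 62.14 TPM in jmj28-2 (log2 change 0.02, 95% interval -0.16 to 0.21). XXT5, another xylosyltransferase of this family, had 39.11 and 36.40 against 41.36 and 41.54 TPM (log2 change 0.13, limma adjusted p = 0.448). AXY8, a fucosidase that trims the side chains, had 33.53 and 33.76 against 41.09 and 35.08 TPM (log2 change 0.17, limma adjusted p = 0.479). XYL1, the xylosidase that removes xylose from xyloglucan, had 95.44 and 96.86 against 95.30 and 93.24 TPM (log2 change -0.03, 95% interval -0.16 to 0.11). XXT2 and XYL1 were named after their values were seen. Whether XXT1 and XXT2 differ in their response was not tested.

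The counts at an unadjusted p changed with the libraries included. The estimates of XTH22, XTH23 and XTH24 stayed higher in jmj28-2. Their genotypes did not overlap, so leaving out 1 library could change only the size of these estimates. A fit without 1 library sets a lone library against a pair, has 1 residual degree of freedom and assumes that the lone library varies as the other genotype does, so its p-values are given only to show which members moved. Without jmj28-2 replicate 2, 8 members were higher and 0 lower at an unadjusted p under 0.05, among them the root-expressed XTH14 and XTH17. Without jmj28-2 replicate 1, 3 were higher and 8 lower, with XTH14 and XTH17 now among the lower ones, at log2 changes of -0.56 and -0.40 in place of 0.31 and 0.29. Without Col-0 replicate 2, 2 were higher and 0 lower, and without Col-0 replicate 1, 5 and 0. With 1 library left out in turn, the log2 change ran from 0.62 to 1.04 for XTH22, from 0.62 to 0.67 for XTH23 and from 0.41 to 0.84 for XTH24.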

How the data were processed

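RNA of whole seedlings was sequenced in 4 libraries, grouped by their labels. The table the authors deposited is called FPKM, but its columns add up to between 998943 and 999014, so its values were read as TPM and tested as planned. TopHat, RSEM, edgeR and TAIR10 are named, without versions, in the submitters' processing notes; filters and strand setting are not given there. TPM hold no record of depth.

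Genes with a mean of at least 1 TPM were fitted as log2(TPM + 1) with limma 3.58.1 in R 4.3.3 (genotype only, intensity trend, 2 residual and 3.18 prior degrees of freedom, two-sided). The fit was tested on simulated data with independent libraries and planted changes larger than any estimated for a member. Changes of the size estimated for the members were not simulated. Permuting 2 against 2 libraries allows no two-sided p below 0.333.

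The members and lists were chosen with earlier results of these data known, and the split of the members by known expression was made after the values were seen. By rule every member was accounted for, the 8 with the smallest p and the 3 most abundant got full statistics, and up to 4 genes of each other list were named by smallest p. Alternatives changed the pseudocount (0.1, 0.01), the filter (none, 5 TPM), the scaling, the variance model, the replicate block and the libraries included. RefSeq (TAIR10.1) gave names and gene order only and matched 33 of 33 members. Figures were drawn with matplotlib 3.10.9.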

Additional observations from a re-analysis of the deposited data

How the results depend on the processing

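Under all 13 alternatives 0 members were called, and the lowest adjusted p of any member was 0.106. Of the 27 tested members, 12 kept their direction under every alternative run. In members without overlap between the genotypes, leaving out 1 library could not turn it. Over all genes, the 8 called higher became 5 at pseudocount 0.01, 4 unfiltered, 5 after median centring, 3 with no trend, 29 under robust fitting and between 0 and 10 on leaving out 1 library. The 7 called lower became 3 at pseudocount 0.01, 4 under the filter of 5 TPM, 14 under robust fitting and between 0 and 7 on leaving out 1 library. Members higher at an unadjusted p under 0.05, 5 as reported, were 3 under quantile normalization and 2 to 8 with 1 library left out. Those lower, 1 as reported, were 0 without the trend and 0 to 8 with 1 library left out. The median log2 change of the members, 0.08, ran from -0.12 without jmj28-2 replicate 1 to 0.24 without jmj28-2 replicate 2, and that of the xyloglucan pathway genes, 0.10, from 0.014 to 0.13. The cause of these shifts was not tested.

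The direction of 15 members and CAM1 turned when 1 library was left out. Log2 changes then ran from -0.12 to 0.27 for XTH8, -0.022 to 0.26 for XTH9, -0.32 to 0.20 for XTH12, -0.56 to 0.026 for XTH13, -0.56 to 0.31 for XTH14, -0.18 to 0.43 for XTH15, -0.40 to 0.29 for XTH17 and -0.41 to 0.21 for XTH18. They ran from -0.23 to 0.24 for XTH19, -0.016 to 0.32 for XTH20, -0.12 to 0.13 for XTH21, -0.20 to 0.36 for XTH26, -0.12 to 0.063 for XTH28, -0.53 to 0.022 for XTH30, -0.20 to 0.13 for XTH31 and -0.0013 to 0.10 for CAM1. Under quantile normalization XTH19 was at -0.037, XTH21 at -0.021 and CAM1 at -0.00102, and with median centring XTH19 was at -0.034 and XTH21 at -0.037.

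Replicate numbers did not pair the libraries by any label, and deviations of same-numbered libraries had a correlation of 0.0162 over genes tested and 0.289 over the 27 tested members. With the replicate block, 0 members were called, and CML12 passed (limma adjusted p = 0.0421, range over its alternatives 0.0421 to 0.539). Unknown depth limits members under about 1 TPM.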

Other observations

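Brassinosteroids, growth hormones known to induce XTH22, were followed through 9 genes of their synthesis, breakdown and signalling, all of them tested. With limma 0 were called, and at an unadjusted p under 0.05 0 were higher and 1 was lower, against 9.5% and 4.36% of all genes tested. CPD, a cytochrome P450 of brassinosteroid synthesis, had 82.58 and 82.96 TPM in Col-0 against 70.10 and 69.67 TPM in jmj28-2, with both mutant libraries lower and replicates close together (log2 change -0.24, SE 0.0533, 95% interval -0.38 to -0.11; limma adjusted p = 0.227). BR6OX2, a later enzyme of the pathway, had 12.54 and 11.14 against 10.84 and 9.47 TPM (limma adjusted p = 0.473). Of the signalling genes, the transcription factor BZR1 was at 18.52 and 17.88 against 19.88 and 20.73 TPM (limma adjusted p = 0.43) and the receptor BRI1 was at 39.04 and 40.54 against 42.80 and 42.06 TPM (limma adjusted p = 0.56). BES1, a transcription factor related to BZR1, and the kinase BIN2, both named after their values were seen, overlapped between genotypes (log2 changes -0.002 and 0.05). The median log2 change of the list was 0.04, beside 0.03 over all genes tested.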
